A study of Mus musculus with 8 samples.

Results

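Broad open regions were the stretches of mouse chromosomes 1 to 19 that held an ATAC-seq peak in all 8 libraries of the series and spanned at least 1500 bp once the peaks of all libraries had been merged. ATAC-seq uses a transposase to cut DNA that is not packed in nucleosomes, and a peak is a stretch where such cuts gather. Merging peaks that overlapped by at least 1 bp gave 114533 regions, of which 35155 lay on the autosomes and had a peak in every library. Of these, 7699 were broad, which is 21.9% of them and 6.72% of all merged regions. The other 27456, under 1500 bp, are called narrower regions below.

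The cells were c-Kit+ cells of the bone marrow, selected on magnetic beads, with 50000 cells per sample. c-Kit is the receptor of stem cell factor and marks the stem cells and progenitors of blood. They were taken 4 weeks after injection of PIpC, an inducer of the interferon-responsive Mx1 promoter that drives the Cre recombinase in these mice. Each of 4 genotypes had 2 libraries. Smc3-deleted Flt3-ITD mice carried Mx1-Cre, a Smc3 deletion and the Flt3 internal tandem duplication, where the genotype label reads Smc3 fl/del and the title a heterozygote, which leaves it unclear what the remaining Smc3 allele is. Flt3-ITD mice carried Mx1-Cre, per their titles, and the duplication, which activates the receptor tyrosine kinase Flt3 and is found in acute myeloid leukemia. Smc3 del/+ mice carried Mx1-Cre and had lost a copy of Smc3, which encodes a subunit of the cohesin ring. Control mice were Smc3 fl/+ without Mx1-Cre, so in every comparison with control the genotype and the presence of Mx1-Cre cannot be told apart. For Flt3-ITD and Smc3 del/+ libraries the description fields are swapped against the titles and genotype labels, and the titles are followed here. The labels mention individual mice and do not state whether a genotype's pair of libraries is from separate animals. A p-value here therefore reflects the spread between these libraries only, which may be technical.

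Open chromatin comes in short stretches, where a bound factor displaces a nucleosome or so, and in longer stretches at active promoters with CpG islands and at groups of neighbouring enhancers. Cohesin travels along DNA and extrudes loops that bring such elements together, and it halts at sites bound by the insulator protein CTCF. Peak width is also a property of the peak caller, since close stretches may be reported as 1 peak or as several. The coordinates are of mouse build mm9. No gene map or genome of that build was used here, so regions are named by position, no gene, promoter or marker of a cell type is assigned to them, and their sequence is not shown.

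The merged width of the broad regions had a median of 1865 bp, with quartiles of 1631 and 2255 bp, while that of the narrower regions was 1013 bp. A width of 3000 bp or more was reached by 447 broad regions and 5000 bp or more by 15. Together they held 15.6 Mb, or 36.7% of the bases in autosomal regions with a peak in every library. The limit falls in a continuous distribution. At the limit there were 17 regions of exactly 1500 bp, such as chr1:173480897-173482396, chr1:192722675-192724174 and chr10:92628330-92629829. There were 19 of 1499 bp, such as chr1:161963898-161965396, chr10:127985615-127987113 and chr11:72114352-72115850. Because merged width chose the regions, every measure of width in them is given as a description, and a contrast with the narrower regions in width, in wide peaks or in the spread between libraries is in part set by that choice.

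The regions were broad as a sum over libraries and mostly not within a given library, where 9.42% to 16.1% had 1500 bp or more covered. In at least 1 library, 4423 regions (57.4%) reached that length. A peak or peaks covering 1500 bp or more were present in all 8 libraries in 14 of the 7699 regions (0.182%), and 1000 bp or more in 170 (2.21%). In 3276 regions (42.6%) no library covered 1500 bp, so that the merged width arose only by joining peaks of different libraries. Gaps between a library's own peaks do not count as covered, so a library could span more than it covered. A single peak of 1500 bp or more was found in at least 1 library for 2885 regions (37.5%). The library with the fewest covered bases in a region covered a median of 338 bp, and the library with the most covered 1549 bp. The median ratio of highest to lowest library was 4.56, against 2.83 in the narrower regions. The name "broad" therefore describes the merged set, and regions that were broad in every library were few.

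The widest region of all, chr4:146892682-146901718, shows how such a width arises. It spanned 9037 bp. Peaks covered 1615 and 3232 bp of it in Smc3-deleted Flt3-ITD cells, 3533 and 2465 bp in Flt3-ITD cells, 4374 and 4510 bp in Smc3 del/+ cells, and 2855 and 4089 bp in control cells. Both Smc3 del/+ libraries were above all others, and the ranges of the other 3 genotypes overlapped. The libraries had 4 and 8 peaks there in Smc3-deleted Flt3-ITD cells, 7 and 7 in Flt3-ITD cells, 9 and 7 in Smc3 del/+ cells, and 4 and 8 in control cells, and no base was covered in all of them.

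The second widest, chr19:53962723-53970350, spanned 7628 bp. Its covered bases were 2901 and 3441 bp in Smc3-deleted Flt3-ITD cells, 1528 and 2125 bp in Flt3-ITD cells, 5161 and 3223 bp in Smc3 del/+ cells, and 3486 and 4346 bp in control cells. Both Flt3-ITD libraries were the lowest, below both control libraries, whereas the values of Smc3 del/+ and control cells overlapped. The third, chr4:146604155-146611683, spanned 7529 bp and was covered over 2174 and 1648 bp in Smc3-deleted Flt3-ITD cells, 2394 and 1936 bp in Flt3-ITD cells, 1580 and 2834 bp in Smc3 del/+ cells, and 3938 and 1654 bp in control cells. All 3 other genotypes fell within the range of the control pair there or just below it. The fourth, chr2:44963897-44970595, spanned 6699 bp, with 1158 and 2516 bp covered in Smc3-deleted Flt3-ITD cells, 2822 and 2780 bp in Flt3-ITD cells, 3203 and 3903 bp in Smc3 del/+ cells, and 3517 and 1503 bp in control cells. The control pair again spread over most of the range of the other libraries.

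**Figure D1:**
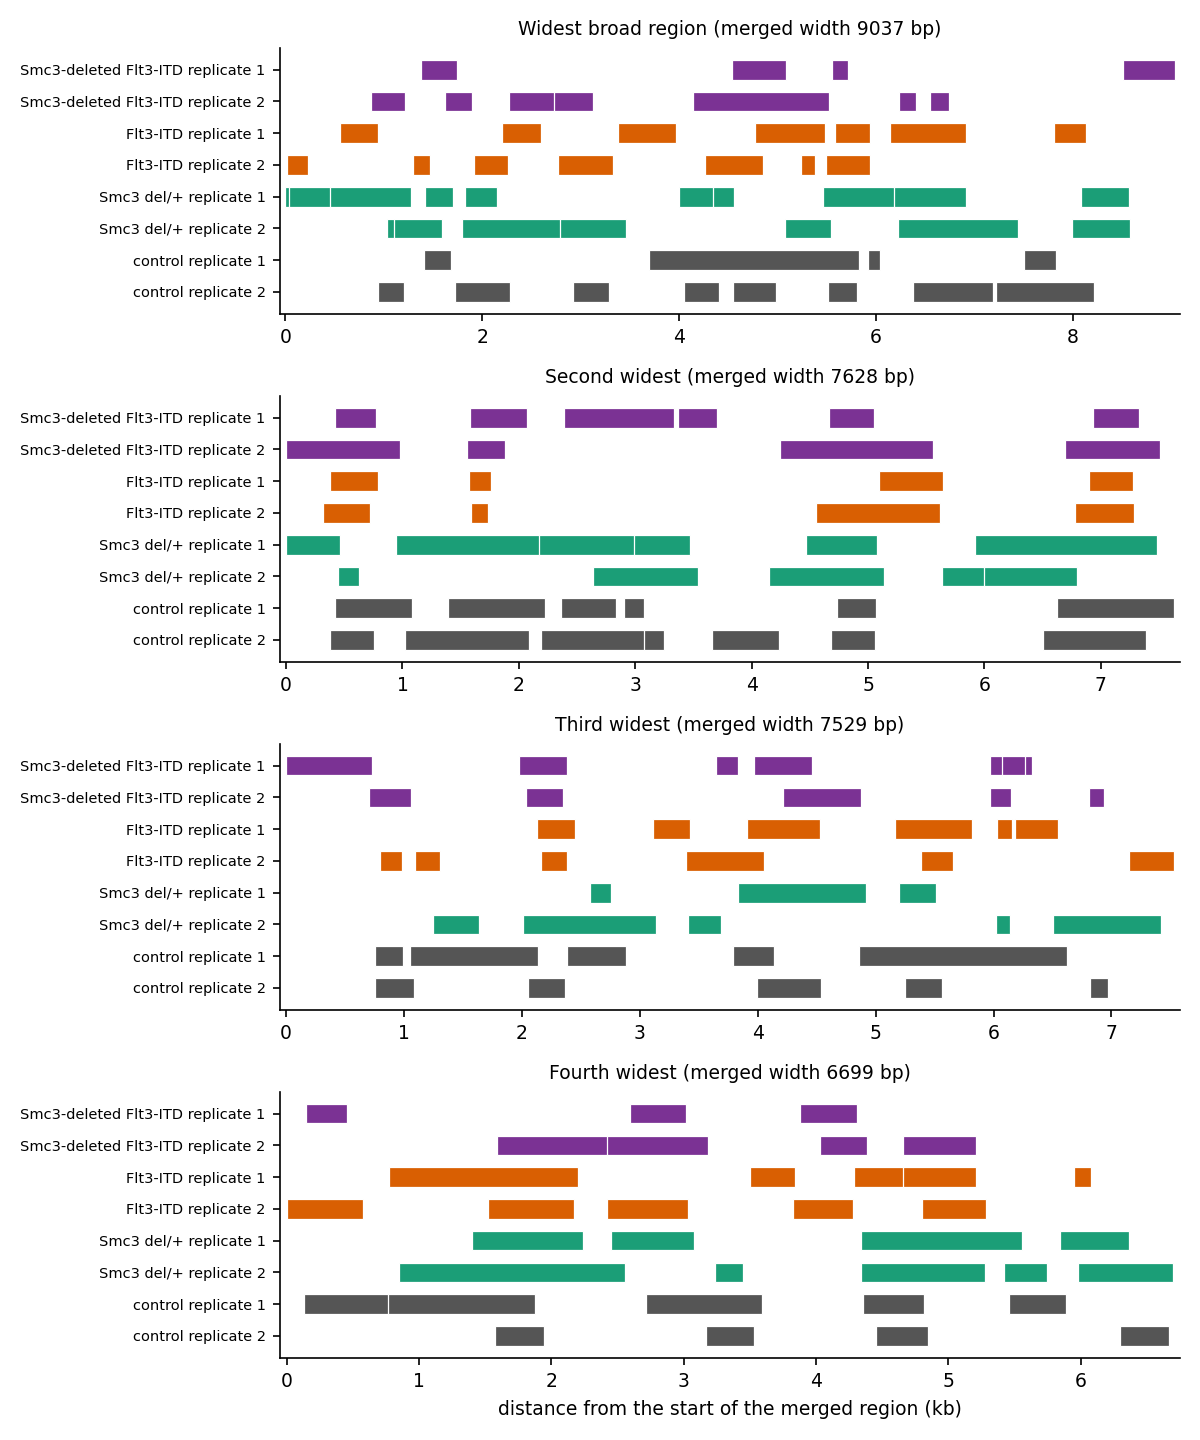
Peaks of the 8 libraries (rows) in the 4 widest broad regions, drawn against the distance in kb from the start of the merged region; each bar is 1 peak and colours mark the genotype. In the widest region, of 9037 bp, the libraries have between 4 and 9 peaks and no position is covered in all rows.

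The other 6 of the 10 widest regions spanned 5835 to 6621 bp. One of them, chr4:134315315-134321695, had a wide peak (defined below as 700 bp or more) in all 8 libraries. It was covered over 3224 and 3945 bp in Smc3-deleted Flt3-ITD cells, 2950 and 2674 bp in Flt3-ITD cells, 2955 and 2362 bp in Smc3 del/+ cells, and 3999 and 2640 bp in control cells. Its lowest library, at 2362 bp, was the highest lowest value of any broad region. At the other end, chr9:78320802-78326636, of 5835 bp, was covered over 125 and 336 bp in Smc3-deleted Flt3-ITD cells, 538 and 1839 bp in Flt3-ITD cells, 2337 and 3028 bp in Smc3 del/+ cells, and 1506 and 2221 bp in control cells. Both Smc3-deleted Flt3-ITD libraries were below every other library there.

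Regions with the most bases common to all libraries were of modest merged width, and they are named after their values were seen. The largest such number was 1290 bp, in chr4:11891706-11894349, which spanned 2644 bp. Peaks covered 2628 and 1430 bp of it in Smc3-deleted Flt3-ITD cells, 1516 and 1341 bp in Flt3-ITD cells, 1674 and 1345 bp in Smc3 del/+ cells, and 1372 and 1421 bp in control cells. A single peak stood there in every library except Smc3-deleted Flt3-ITD replicate 1, which had 2, and both libraries of that genotype were above both control libraries. In chr17:74926907-74928520, of 1614 bp, a common stretch of 1218 bp filled 75.5% of the region, and 1 peak per library covered 1476 and 1295 bp in Smc3-deleted Flt3-ITD cells, 1343 and 1280 bp in Flt3-ITD cells, 1227 and 1443 bp in Smc3 del/+ cells, and 1338 and 1300 bp in control cells. The genotypes overlapped in the chromosome 17 region.

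Over all broad regions, Smc3 del/+ and Flt3-ITD libraries covered more bases per region than control libraries, and Smc3-deleted Flt3-ITD libraries covered fewer. The median number of bases covered per region was 681 and 706 bp in Smc3-deleted Flt3-ITD cells, 906 and 891 bp in Flt3-ITD cells, 956 and 947 bp in Smc3 del/+ cells, and 744 and 727 bp in control cells. The genotypes did not overlap on this measure. Averaged over libraries, the medians were 693.5 ± 17.7 bp in Smc3-deleted Flt3-ITD cells, 898.5 ± 10.6 bp in Flt3-ITD cells, 951.5 ± 6.36 bp in Smc3 del/+ cells and 735.5 ± 12.0 bp in control cells (SD, n = 2 each). No test is given for these medians, since broad regions are not replicates and the regions were chosen on the widths they summarise. The c-Kit+ fraction is a mixture of progenitor types, and a change in its makeup cannot be told apart from a change in the chromatin of a given cell.

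The same order of genotypes appeared in the narrower regions on a smaller scale. Their median covered length was 398 and 399 bp in Smc3-deleted Flt3-ITD cells, 414 and 417 bp in Flt3-ITD cells, 424 and 422 bp in Smc3 del/+ cells, and 401 and 402 bp in control cells. The order is thus not particular to broad regions. The length of the peak lists moved with it in part. After removal of repeated intervals the lists held 80505 and 80087 peaks in Smc3-deleted Flt3-ITD cells, 66966 and 64049 in Flt3-ITD cells, 61798 and 63227 in Smc3 del/+ cells, and 74300 and 64558 in control cells. Control replicate 2 had a list about as short as Flt3-ITD replicate 2, and its median in broad regions was 727 bp, near control replicate 1. Read depth is unknown, since the lists carry no read counts, and its part in the widths was not tested.

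**Figure D2:**
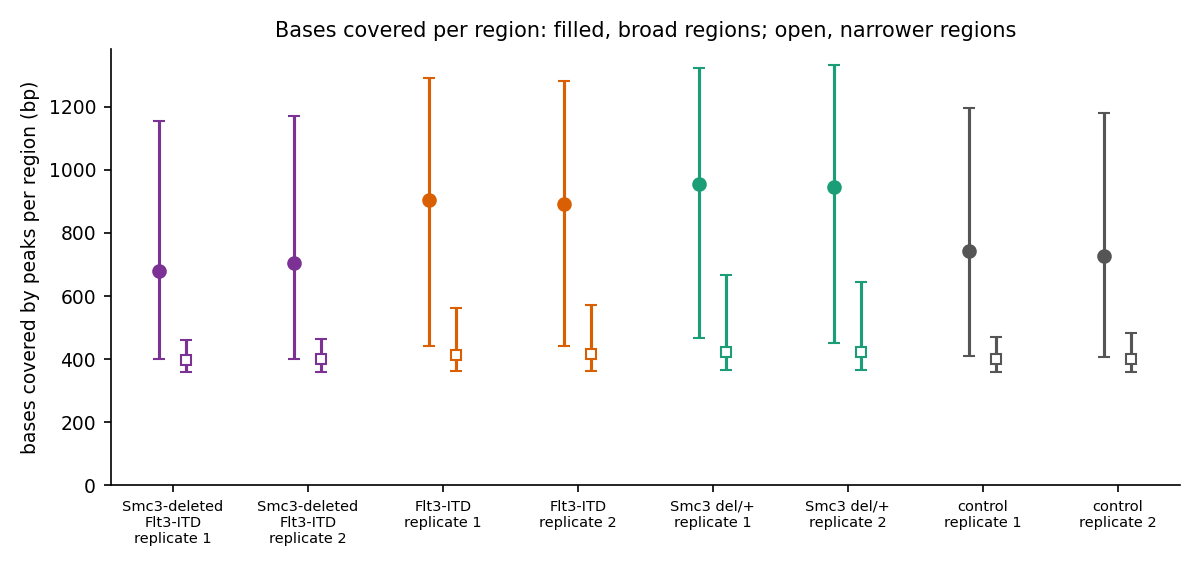
Median bases covered by peaks per region in each library, with bars from the lower to the upper quartile over regions; filled circles are the 7699 broad regions and open squares the 27456 narrower regions. Medians in broad regions lie between 681 and 956 bp, highest in Smc3 del/+ and lowest in Smc3-deleted Flt3-ITD libraries, and the quartiles of all libraries overlap.

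The widest peak of a broad region was most often either short or wide, and the narrower regions showed the same pair of maxima at lower height. In every library the widest peak of a broad region was most often 350 to 400 bp long, a second maximum lay at 1100 to 1200 bp, and fewer peaks fell between, near 700 bp. In the narrower regions a second maximum lay at 1000 to 1150 bp in every library, with at most 1.41% and 1.56% of regions per 50 bp in Smc3-deleted Flt3-ITD cells, 2.28% and 2.37% in Flt3-ITD cells, 2.59% and 2.67% in Smc3 del/+ cells, and 1.68% and 1.75% in control cells. A limit of 700 bp, set after the widths had been seen, was used to call a peak wide. The share of broad regions with a wide peak was 39.9% and 41.2% in Smc3-deleted Flt3-ITD cells, 52.3% and 52.1% in Flt3-ITD cells, 56.2% and 55.5% in Smc3 del/+ cells, and 42.7% and 42.6% in control cells. Genotypes thus differed in how often the wide form was called, while both maxima stayed at nearly the same length. In the narrower regions the shares were 12.9% and 13.3% in Smc3-deleted Flt3-ITD cells, 20.1% and 20.3% in Flt3-ITD cells, 23.4% and 22.8% in Smc3 del/+ cells, and 13.5% and 15.0% in control cells.

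**Figure D3:**
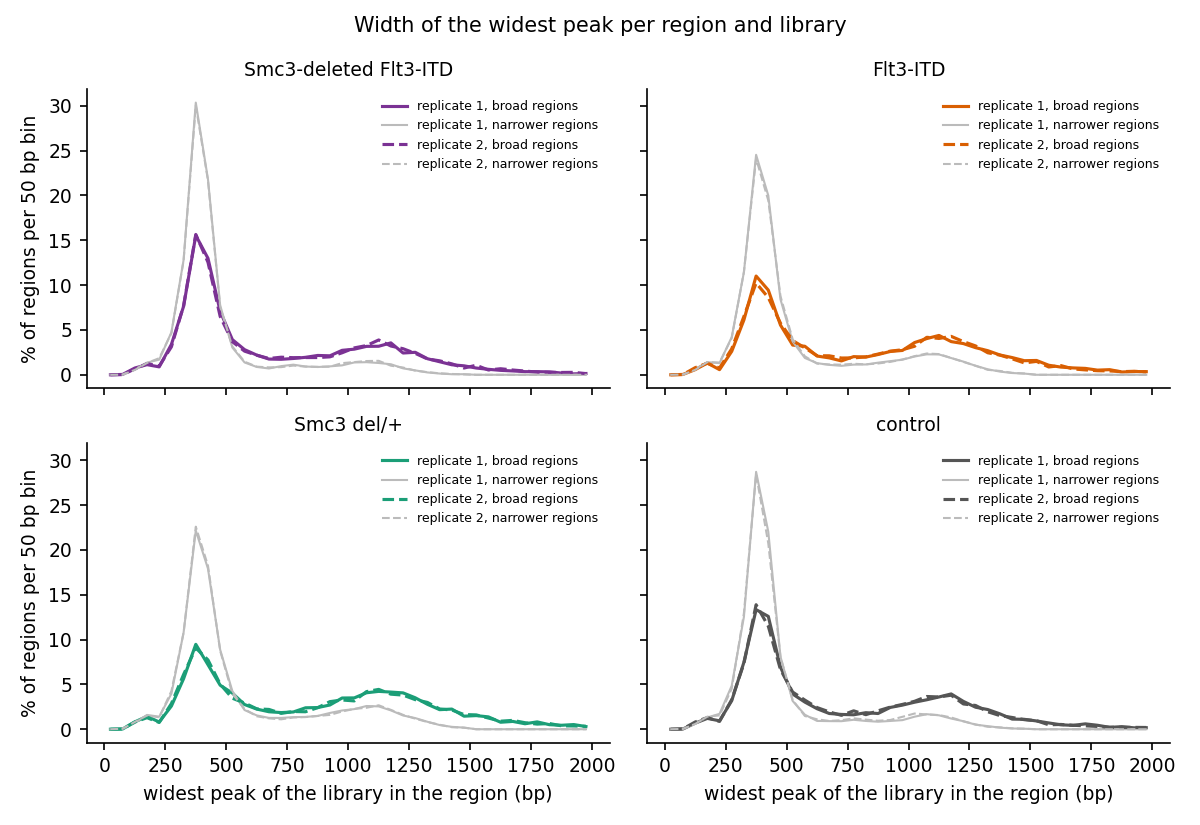
Distribution of the width of the widest peak per region, in bins of 50 bp, for the libraries of each genotype; coloured lines are broad regions and grey lines narrower regions, and solid and dashed lines are replicates 1 and 2. Each library has a maximum at 350 to 400 bp and a second, lower one at 1100 to 1200 bp in broad regions and at 1000 to 1150 bp in narrower regions, both of these higher in Flt3-ITD and Smc3 del/+ libraries; widths above 2000 bp are not drawn.

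Most broad regions held the wide form in some libraries and the short form in others. A wide peak was present in all 8 libraries in 258 regions (3.35%) and in none in 70 (0.909%). Between these, 750 regions had it in 1 library, 1376 in 2, 1433 in 3, 1333 in 4, 1127 in 5, 857 in 6 and 495 in 7. Among narrower regions 40.6% had it in no library and 1.02% in all 8.

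Replicates of a genotype agreed only in part on which broad regions were wide. Both libraries had a wide peak in 1655 regions (21.5%) in Smc3-deleted Flt3-ITD cells, 2300 (29.9%) in Flt3-ITD cells, 2525 (32.8%) in Smc3 del/+ cells and 1766 (22.9%) in control cells. A single library of the pair had it in 38.1% of regions in Smc3-deleted Flt3-ITD cells, 44.6% in Flt3-ITD cells, 46.0% in Smc3 del/+ cells and 39.4% in control cells. Among regions that were wide in replicate 1, replicate 2 was wide in 53.9% in Smc3-deleted Flt3-ITD cells, 57.1% in Flt3-ITD cells, 58.4% in Smc3 del/+ cells and 53.8% in control cells. Over all broad regions replicate 2 was wide in 41.2% in Smc3-deleted Flt3-ITD cells, 52.1% in Flt3-ITD cells, 55.5% in Smc3 del/+ cells and 42.6% in control cells. The gain in knowing the first replicate was therefore smaller in both single genotypes than in Smc3-deleted Flt3-ITD and control cells.

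The correlation of covered bases (log2) between the replicates, across the 7699 regions, was 0.284 in Smc3-deleted Flt3-ITD cells, 0.144 in Flt3-ITD cells, 0.0997 in Smc3 del/+ cells and 0.247 in control cells (Pearson's r). Regions are not independent replicates and share their library, so these values are descriptions. In the narrower regions r was 0.284 in Smc3-deleted Flt3-ITD cells, 0.244 in Flt3-ITD cells, 0.209 in Smc3 del/+ cells and 0.276 in control cells. The median replicate difference in a broad region was 0.58 on the log2 scale in Smc3-deleted Flt3-ITD cells, 0.74 in Flt3-ITD cells, 0.79 in Smc3 del/+ cells and 0.63 in control cells.

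Pooling both libraries of a genotype lengthened the regions in every genotype. The union of the pair covered a median of 1134 bp in Smc3-deleted Flt3-ITD cells, 1302 bp in Flt3-ITD cells, 1359 bp in Smc3 del/+ cells and 1176 bp in control cells. It reached 1500 bp in 1899 regions (24.7%) in Smc3-deleted Flt3-ITD cells, 2691 (35.0%) in Flt3-ITD cells, 3002 (39.0%) in Smc3 del/+ cells and 1987 (25.8%) in control cells. From the first to the last covered base, the pair spanned a median of 1211 bp in Smc3-deleted Flt3-ITD cells, 1370 bp in Flt3-ITD cells, 1424 bp in Smc3 del/+ cells and 1252 bp in control cells.

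The number of peaks per broad region differed little between genotypes. The mean was 1.28 and 1.28 in Smc3-deleted Flt3-ITD cells, 1.28 and 1.27 in Flt3-ITD cells, 1.27 and 1.27 in Smc3 del/+ cells, and 1.29 and 1.28 in control cells. Of the regions, 73.8% to 76.2% had 1 peak in a given library, 1648 to 1811 regions had 2, and 171 to 204 had 3 or more, with up to 6 to 9 in a region. Exactly 1 peak in every library was found in 3583 regions (46.5%), and 2 or more in every library in 454 (5.90%). The differences in covered bases between genotypes thus lay in peak width, not in the number of peaks.

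Where a library had more than 1 peak in a region, the gaps between neighbours were longest in Smc3-deleted Flt3-ITD cells, with medians of 543 and 544 bp, against 498 and 488.5 bp in Flt3-ITD cells, 451 and 453.5 bp in Smc3 del/+ cells, and 513 and 505.5 bp in control cells. The distance between the centres of neighbouring peaks was steadier, with library medians from 995.8 to 1026 bp. Peaks of the same list can overlap, and such neighbours count in the centre distances but not in the gaps. Overlapping neighbours numbered 333 and 368 in Smc3-deleted Flt3-ITD cells and 439 and 455 in Flt3-ITD cells. They numbered 479 and 485 in Smc3 del/+ cells, and 386 and 374 in control cells. Gaps and centre distances thus rest on different sets of neighbours. The median centre distances were about alike in every genotype, and the gaps were shorter where peaks were wider.

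Few bases of a broad region were covered in all libraries. Of the merged bases, 24.9% were covered in 1 library only, 17.6% in 2, 13.3% in 3, 11.3% in 4, 9.83% in 5, 8.78% in 6, 7.73% in 7 and 6.46% in all 8. In the narrower regions 20.3% were covered in 1 library and 14.2% in all 8. No base was common to all 8 libraries in 3774 broad regions (49.0%), against 12278 narrower ones (44.7%). Where bases common to all 8 libraries existed, their median number was 248 bp, summed over any separate pieces. The sum reached 500 bp in 266 regions (3.45%) and 1000 bp in 28 (0.364%). In 403 regions (5.23%) the best covered base was reached by only 4 or 5 libraries. Like all 3774 broad regions without a base common to all 8 libraries, these were joined from peaks that did not all overlap each other.

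The single genotypes contributed most to the outer and unshared bases. Of the bases covered in a single library, 8.59% and 9.39% came from the Smc3-deleted Flt3-ITD libraries, 14.7% and 15.0% from the Flt3-ITD libraries, 17.5% and 17.4% from the Smc3 del/+ libraries, and 8.69% and 8.72% from the control libraries. They also set more of the ends of the merged regions, with 14.5% and 14.7% of ends for Flt3-ITD and 16.4% and 16.6% for Smc3 del/+ libraries. The shares were 9.12% and 10.2% for Smc3-deleted Flt3-ITD libraries, and 10.2% and 9.81% for control libraries. Membership therefore leaned toward regions where the single genotypes had wide peaks, a limit on every comparison of width between genotypes in this set.

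**Figure D4:**
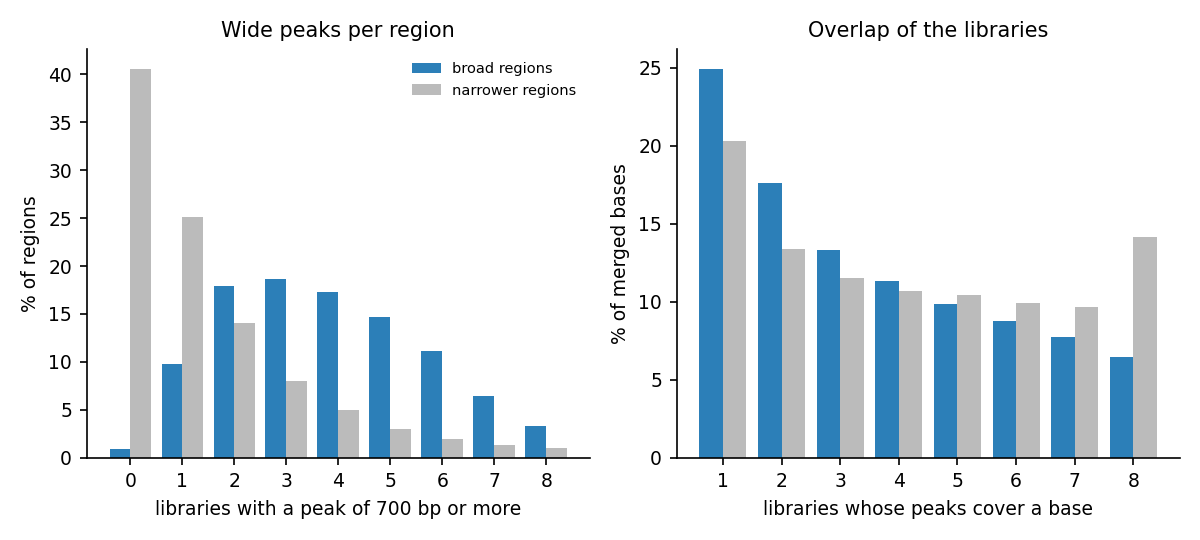
Agreement of the libraries in broad (blue) and narrower (grey) regions: left, percent of regions against the number of libraries with a peak of 700 bp or more; right, percent of merged bases against the number of libraries whose peaks cover them. In broad regions 3.35% have a wide peak in all 8 libraries and 6.46% of bases are covered in all 8.

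The libraries' overlap in bases, as the Jaccard index (shared over combined bases), was 0.413 ± 0.00808 for the 4 pairs of the same genotype and 0.391 ± 0.00719 for the 24 pairs of different genotypes (SD over pairs, which share libraries). In narrower regions it was 0.506 ± 0.0199 and 0.492 ± 0.0121 for the same 2 kinds of pair.

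The distance between short peaks of different libraries in the same broad region had a maximum near 0 and a second, lower one between 300 and 500 bp, with other distances in the rest of the regions. Each region was represented by the widest peak of a library in it, and regions where this was under 500 bp in both libraries of a pair were compared. The centres of these peaks were less than 100 bp apart in 58.4% of 2269 regions in Smc3-deleted Flt3-ITD cells, 51.1% of 1261 in Flt3-ITD cells, 45.4% of 968 in Smc3 del/+ cells and 56.7% of 2028 in control cells. They were 300 to 500 bp apart in 22.3% of those in Smc3-deleted Flt3-ITD cells, 22.9% in Flt3-ITD cells, 25.8% in Smc3 del/+ cells and 21.9% in control cells. Distances of 100 to 300 bp were rarer, at 6.21% in Smc3-deleted Flt3-ITD cells, 10.7% in Flt3-ITD cells, 12.1% in Smc3 del/+ cells and 7.50% in control cells. The centres were 500 bp or more apart in 13.1% in Smc3-deleted Flt3-ITD cells, 15.3% in Flt3-ITD cells, 16.7% in Smc3 del/+ cells and 13.9% in control cells. The pairs of different genotypes had 21.9% to 26.7% at 300 to 500 bp, so this spacing was seen within and between genotypes alike.

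Peaks whose centres were 300 to 500 bp apart had a median gap (overlaps counted as negative) of 13 to 34 bp over the 28 library pairs. A small gap follows in part from choosing peaks under 500 bp with centres at these distances. The narrower regions had this second maximum too, with 19.3% to 22.2% of regions, but only 0.691% to 1.48% at 500 bp or more, which their merged width limits. In broad regions 13.1% to 19.9% were 500 bp or more apart.

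**Figure D5:**
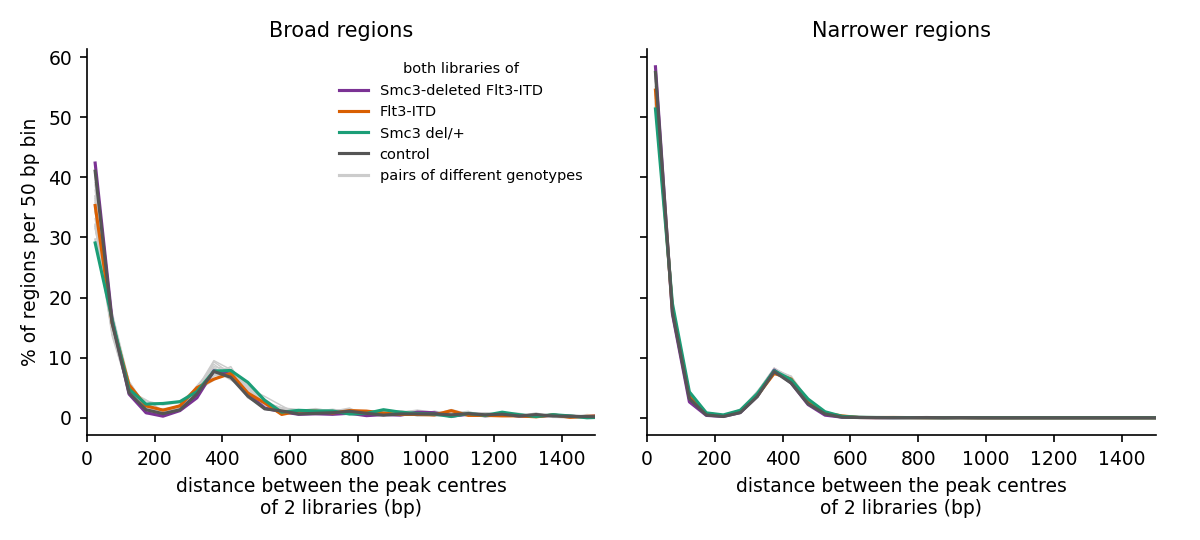
Distance between the centres of the widest peaks of 2 libraries in the same region, where both are short (under 500 bp), as percent of regions per 50 bp bin; coloured lines are the 2 libraries of a genotype and grey lines pairs of different genotypes. Both panels show a maximum near 0 and a second between 300 and 500 bp, and distances above 1500 bp are not drawn.

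Short peaks also sat inside the wide peaks of other libraries. In 61085 pairings of libraries in a broad region, the widest peak was under 500 bp in one library and 900 bp or more in the other. In these, 67.3% of the short peaks lay wholly inside the wide one and 82.3% had their centre inside it. Both peaks belong to the same merged region, where the wide one takes up 900 bp or more. These shares are therefore in part set by the merging, and no baseline was computed. The centres that lay inside were spread along the wide peak. With the wide peak cut into bins of 10% of its length, 13.4% and 13.8% of these centres lay in the bins on either side of its middle, 2.70% and 3.76% in the bins at its ends, and 9.72% to 13.0% in each of the rest.

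The score that the authors deposited with each peak, whose meaning no source used here gives, was at its maximum of 1 less often in broad regions than in narrower ones. The share at exactly 1 among peaks in broad regions was 49.9% and 49.4% in Smc3-deleted Flt3-ITD cells, 39.7% and 37.1% in Flt3-ITD cells, 28.9% and 29.9% in Smc3 del/+ cells, and 41.8% and 36.6% in control cells. In narrower regions it was 67.0% and 66.7% in Smc3-deleted Flt3-ITD cells, 55.0% and 52.3% in Flt3-ITD cells, 43.1% and 44.0% in Smc3 del/+ cells, and 58.3% and 52.3% in control cells. Every library had the lower share in broad regions. Within broad regions the wide peaks had it more often than the short ones, with 36.3% and 35.8% of wide peaks against 22.4% and 24.7% of short peaks in Smc3 del/+ cells, and 44.1% and 39.9% against 40.6% and 34.8% in control cells.

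Region by region, no broad region passed the test for a difference in covered bases between genotypes. limma was fitted to log2 covered bases of all 35155 autosomal regions with a peak in every library, after the library median was subtracted, and p-values were adjusted by the Benjamini-Hochberg method. At an adjusted p under 0.05, 0 broad regions and 0% of all regions were called for each of 6 contrasts. The smallest adjusted p from limma was 0.416 for Smc3-deleted Flt3-ITD against control, 0.301 for Flt3-ITD against control, 0.244 for Smc3 del/+ against control, 0.307 for Smc3-deleted Flt3-ITD against Flt3-ITD, 0.224 for Smc3-deleted Flt3-ITD against Smc3 del/+ and 0.264 for the interaction of Smc3 deletion and Flt3-ITD.

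With 2 libraries a genotype the fit could show only large differences. The median standard error of a log2 difference between 2 genotypes was 0.64 in broad regions and 0.43 in narrower ones. The 95% interval of such a difference in a typical broad region reached 2.96-fold to either side. For the interaction the median standard error in broad regions was 0.91, and the interval reached 4.64-fold. Absence of a call therefore does not show that a region was equally wide in 2 genotypes.

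At an unadjusted p under 0.05, limma passed more broad regions than regions overall in every contrast. The broad set differs from the rest in spread by the way it was chosen, so nothing is read from this excess. For Smc3-deleted Flt3-ITD against control 667 broad regions passed (8.66%, against 4.50% of all regions), 285 higher and 382 lower, beside 700 higher and 881 lower over all regions. For Flt3-ITD against control 785 passed (10.2%, against 5.93%), 495 higher and 290 lower, beside 1331 higher and 752 lower over all regions. For Smc3 del/+ against control 837 passed (10.9%, against 6.86%), 549 higher and 288 lower, beside 1595 higher and 817 lower over all regions. The splits of the broad regions were thus close to those of all regions.

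The comparisons of the combined with the single genotypes, and the interaction, also split in broad regions much as they did over all regions, with more lower than higher. For Smc3-deleted Flt3-ITD against Flt3-ITD 787 broad regions passed at an unadjusted p under 0.05 (10.2%, against 5.71% of all regions), 259 higher and 528 lower, beside 662 higher and 1345 lower over all regions. For Smc3-deleted Flt3-ITD against Smc3 del/+ 927 passed (12.0%, against 7.28%), 292 higher and 635 lower, beside 821 higher and 1739 lower over all regions. For the interaction, which is the combined genotype minus both single genotypes plus control, 896 passed (11.6%, against 7.12%), 269 positive and 627 negative, beside 751 positive and 1753 negative over all regions.

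These splits depended on the scaling. With the libraries' widths made equal by quantile normalization, the broad regions that passed divided into 318 higher and 374 lower for Smc3-deleted Flt3-ITD against control, 389 and 383 for Flt3-ITD against control, and 431 and 407 for Smc3 del/+ against control. They were 373 higher and 417 lower for Smc3-deleted Flt3-ITD against Flt3-ITD, 443 and 482 for Smc3-deleted Flt3-ITD against Smc3 del/+, and 421 positive and 462 negative for the interaction. After that scaling the splits were near even.

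The median log2 difference over broad regions was -0.02 for Smc3-deleted Flt3-ITD against control, 0.08 for Flt3-ITD against control and 0.10 for Smc3 del/+ against control. It was -0.10 for Smc3-deleted Flt3-ITD against Flt3-ITD, -0.12 for Smc3-deleted Flt3-ITD against Smc3 del/+ and -0.24 for the interaction. Over all regions the medians lay between -0.01 and 0.01 for the pairs of genotypes and at -0.05 for the interaction. Values near 0 follow there from the subtraction of each library's median over these same regions. Membership also leaned toward regions where the single genotypes had wide peaks. A shift particular to broad regions is therefore not read from this contrast. Without subtraction of the library median, the value over broad regions was -0.03 for Smc3-deleted Flt3-ITD against control, beside -0.01 over all regions. It was 0.14 for Flt3-ITD against control, beside 0.07, and 0.20 for Smc3 del/+ against control, beside 0.10. With quantile normalization all medians over broad regions lay between -0.01 and 0.01.

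A switch between the short and the wide form in both libraries was found in 3.00% to 9.27% of broad regions per direction and comparison with control. For Smc3-deleted Flt3-ITD, a wide peak in both of its libraries and in neither control library was found in 325 broad regions (4.22%, against 1.92% of all regions), and the reverse in 416 (5.40%, against 2.42%). For Flt3-ITD the counts were 599 (7.78%, against 3.95%) wide in Flt3-ITD only and 252 (3.27%, against 1.51%) wide in control only. For Smc3 del/+ they were 714 (9.27%, against 5.05%) wide in Smc3 del/+ only and 231 (3.00%, against 1.45%) wide in control only. The 3 comparisons share the control libraries, and their regions may not be set against each other as independent. Most switches of the single genotypes went toward the wide form, and those of the combined genotype slightly toward the short form. The libraries' overall shares of wide peaks differed from control in the same directions. No number expected from these shares was computed.

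Broad regions were found on every autosome in similar proportion. They made up 19.1% of the regions with a peak in every library on chromosome 2, the lowest share, and 24.0% on chromosome 19, the highest. Per Mb, their number was lowest on chromosome 14, at 2.27, and highest on chromosome 11, at 4.59. Over 1 Mb windows, 1708 held at least 1 broad region, with a median of 4, while 342 held a single one and 147 held 10 or more.

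Neighbouring broad regions were far apart for the most part. The nearest other broad region lay at a median of 35115 bp, with quartiles of 10438 and 100317 bp. The corresponding distance between narrower regions was 9088 bp, but these are more numerous. Measured to the nearest region of either kind with a peak in every library, the median was 5575 bp for broad and 6550 bp for narrower regions. To the nearest merged region of any kind it was 1406 bp for broad and 1679 bp for narrower regions, and 42.0% of broad against 36.9% of narrower regions had such a neighbour within 1000 bp.

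Chained at gaps of up to 12.5 kb, 2152 broad regions (28.0%) fell into 929 clusters and 5547 had no other broad region that near. Among narrower regions, which are more numerous, 16082 (58.6%) had another narrower region within 12.5 kb. Counting regions of either kind with a peak in every library, 68.9% of broad and 66.4% of narrower regions had a neighbour within 12.5 kb. Of the clusters, 732 had 2 members, 134 had 3, 46 had 4, and 17 had 5 or more. The 17 large clusters held 102 broad regions.

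The largest cluster and the second both lay near the distal end of chromosome 4. The largest, chr4:146763259-146827869, held 13 broad regions in 64.6 kb, and merged regions filled 57.6% of its span. Its covered bases summed to 14296 and 17370 bp in Smc3-deleted Flt3-ITD cells, 14292 and 13973 bp in Flt3-ITD cells, 15001 and 16827 bp in Smc3 del/+ cells, and 18863 and 19461 bp in control cells. Both control libraries were above all others, the opposite of the order of the single genotypes and control over all broad regions. The second, chr4:145678902-145712069, held 7 broad regions and was covered over 7886 and 5670 bp in Smc3-deleted Flt3-ITD cells, 9358 and 7704 bp in Flt3-ITD cells, 6833 and 8072 bp in Smc3 del/+ cells, and 8515 and 8693 bp in control cells, with Flt3-ITD and control cells overlapping and the other genotypes below both control libraries.

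The window of chromosome 4 from 146 to 147 Mb held 29 broad regions among 36 with a peak in every library, or 80.6%, and that from 145 to 146 Mb held 20 among 26, or 76.9%. Of the other windows with 10 or more broad regions, most of the regions were broad only on chromosome 8, with 10 of 13 from 19 to 20 Mb and 11 of 20 from 127 to 128 Mb. In the other windows with at least 20 broad regions the shares were lower. The window of chromosome 1 from 182 to 183 Mb had 20 of 55, and that of chromosome 10 from 80 to 81 Mb had 20 of 95. Of the 10 widest regions, chr4:146892682-146901718 and chr4:146604155-146611683 lay in the chromosome 4 stretch. No source used here states how reads that match several places were handled there, and its part in the widths was not tested.

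The other 3 of the 5 largest clusters showed different orders of the genotypes. In chr17:84499229-84528725, with 7 broad regions in 29.5 kb, the covered bases were 5521 and 5215 bp in Smc3-deleted Flt3-ITD cells, 7445 and 6897 bp in Flt3-ITD cells, 6143 and 5669 bp in Smc3 del/+ cells, and 6072 and 4382 bp in control cells. Both Flt3-ITD libraries were the highest there. In chr6:120402285-120444950, with 6 broad regions, they were 5522 and 6304 bp in Smc3-deleted Flt3-ITD cells, 9169 and 9489 bp in Flt3-ITD cells, 7513 and 5122 bp in Smc3 del/+ cells, and 8291 and 8867 bp in control cells. Flt3-ITD was again the highest, and both Smc3-deleted genotypes were below both control libraries. In chr9:110943833-110997937, with 6 broad regions, they were 5209 and 5791 bp in Smc3-deleted Flt3-ITD cells, 6921 and 7390 bp in Flt3-ITD cells, 8600 and 9920 bp in Smc3 del/+ cells, and 5843 and 6059 bp in control cells. This cluster kept the order seen over all broad regions, with no overlap between the genotypes. Sums over clusters were not tested, since each cluster was picked for its number of broad regions.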

How the data were processed

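The authors deposited 1 peak list per library with 6 columns and no header: chromosome, start, end, name, a score from 0.99 to 1 and a strand that is always plus. No counts are in them. The score served to rank peaks within a list, with ties ordered by width, wider peaks first, and its share at exactly 1 was described. Per the submitters' processing notes, Bowtie and mm9 were used; the sources used here name no version, peak caller, settings or handling of duplicate or multiply matching reads. Starts were converted to count from 1.

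Peaks of all 8 lists (555490 distinct of 557040) were merged at an overlap of 1 bp. Covered bases are the union of a library's peaks in a region. Groups follow titles and genotype labels. A count model was not run because the files hold no counts. Same-numbered replicates did not deviate together in covered bases (correlations -0.0141 to 0.00886), and libraries were treated as unpaired in the main fit. A batch shared by same-numbered libraries need not show in such widths, so it is not excluded. Members, limits and lists were chosen with earlier results of these data known. Named regions are the 10 widest, the 5 largest clusters (ties by covered bases) and examples at the width limit. Regions with the most bases common to all libraries were also named, chosen after their values were seen. Steps were tested on simulated data. Python 3.11.15, numpy 2.4.6, pandas 2.3.3, matplotlib 3.10.9, R 4.3.3 and limma 3.58.1 were used.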

Additional observations from a re-analysis of the deposited data

How the results depend on the processing

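The number of broad regions depends on the rule. It was 21746 at a width of 1000 bp or more, 3074 at 2000 bp or more, and 3130 when the lists were cut to their 50% of peaks with the highest scores. Merging the 2 libraries of a genotype alone, an alternative added after seeing the data, gave 1627 in Smc3-deleted Flt3-ITD, 2260 in Flt3-ITD, 2577 in Smc3 del/+ and 1500 in control cells. Leaving out 1 library at a time gave 6700 to 7184, fewest without Smc3 del/+ replicate 2. With 61798 peaks per list there were 6801 regions. Their median covered bases were then 585 and 619 bp in Smc3-deleted Flt3-ITD, 896 and 903 bp in Flt3-ITD, 980 and 963 bp in Smc3 del/+, and 689 and 727 bp in control cells, in the same order of genotypes. Clusters numbered 550 at gaps of up to 5000 bp, 1286 at 25000 bp, and 921 without chromosome 4 from 145 to 147 Mb (added after seeing the data). A wide peak in all 8 libraries was found in 375 regions at a limit of 600 bp and 172 at 800 bp, limits also added then.

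The limma fit called 0 broad regions under every alternative run: no centring, quantile normalization, widest peak in place of covered bases, equal peak numbers, single-genotype labels exchanged, each library left out, and the replicate number as a block (replicate block, 0 calls), the last not a paired design. Exchanging the single-genotype labels only renames the contrasts, so its 0 calls repeat those of the main fit and are no separate check. The labels exchanged would swap the values of Flt3-ITD and Smc3 del/+ cells throughout. Limits are 2 libraries a genotype, unknown read depth and peak caller, a score of unstated meaning, and membership set by the same widths that are described.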
